A study of Rattus norvegicus with 24 samples.

Results

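Lysosome and autophagy genes were followed in CA1, the hippocampal field of pyramidal neurons that spatial learning depends on, in young and aged rats. The set was a list of 49 named genes. A gene counted as measured when its brightest probe set, among those annotated to that gene alone, exceeded a log2 signal of 4 on 6 or more arrays. By this rule 44 of the 49 were measured, among 9076 measured genes in all. Ctsc was too dim. Galns, Sgsh and Npc1 had no probe set with that symbol, and the Map1lc3b probe set also named another gene. All rats were male Long-Evans rats, individually housed and without treatment: 9 young rats of 6 months, and 14 aged rats of 24 to 26 months that had been split by a learning index in the Morris water maze. Of the aged rats, 6 had learned within the range of young rats (aged unimpaired) and 8 had learned worse than young rats (aged impaired). RNA came from microdissected CA1 tissue, so each array holds all cell types of the field, and with bulk tissue fewer or more cells of a type cannot be told apart from less or more RNA per cell.

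Lysosomes are acidic organelles in which proteases, glycosidases, sulfatases and lipases digest material from endocytosis, phagocytosis and autophagy. A proton pump, the vacuolar ATPase, acidifies them, membrane glycoproteins shield and organise them, and small soluble proteins help to hand lipids to the enzymes or out of the lumen. In autophagy, a membrane marked by proteins of the Atg8 family closes around cytoplasm and fuses with the lysosome. Loss of many of these enzymes causes storage disease with neurodegeneration, and in brain many cathepsins are most abundant in microglia, the resident phagocytes.

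The median log2 signal of an array lay between 4.20 and 4.28, and its median correlation with the others between 0.990 and 0.994. This correlation was higher in unimpaired arrays than in young ones (2-sided exact permutation p = 0.0248) and than in impaired ones (exact p = 0.0433), while young and impaired arrays gave an exact p of 0.469. Its part in the results was not tested beyond leaving out the 3 arrays of lowest correlation (impaired replicates 7 and 8 and young replicate 5). That choice was made after seeing the data. It left 12 of the 44 genes called in aged rats, where 331 of 9058 genes in all were called. RNA quality, read from control transcripts probed at both ends, gave 2-sided exact permutation p-values of 0.534 (young and impaired arrays), 0.113 (young and unimpaired) and 0.213 (both aged groups). Neuronal markers were measured in all groups, with 19 of 20 over the limit and a mean log2 signal of 11.22 for the CA1 marker Wfs1 in young rats, 11.47 in aged unimpaired and 11.11 in aged impaired rats. Prox1, a marker of neighbouring dentate granule cells, was also over the limit, at 7.62 ± 0.55 (SD, n = 9) in young, 7.14 ± 0.52 (SD, n = 6) in unimpaired and 7.81 ± 0.39 (SD, n = 8) in impaired rats.

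Many genes of lysosomal enzymes and membranes rose with age. Among the few proton pump and autophagy genes of the set 0 passed the test. Of the 44 genes, 15 rose and none fell in aged against young CA1 (limma over all 9076 genes, Benjamini-Hochberg adjusted p under 0.05). That is 34.1% of the set, where 3.71% of all genes were called, 3.09% higher and 0.628% lower. The set was chosen with earlier results of these data known, so its share describes the set and is no test of it. At an unadjusted p under 0.05, 21 were higher and 0 lower, against 10.6% and 4.74% of all genes. The 21 include the dim gene Manba, which passed the signal limit through the aged arrays. The lipid carrier Npc2 rose 1.46-fold and the protease Ctsz 1.98-fold. The membrane proteins Lamp2 and Cd63 rose 1.25-fold and 1.28-fold, and the protease Ctsd 1.34-fold. By role, the called genes were 6 of 9 measured proteases, 5 of 15 glycosidases, sulfatases and other hydrolases, 2 of 5 membrane proteins and 2 of 3 soluble lipid-binding or activator proteins. Of 5 proton pump and 7 autophagy genes, 0 passed, and at an unadjusted p under 0.05 there were 0 and 1. Where 3.71% of all genes were called, 0 among so few genes says little. Over all 44 genes the median log2 difference, aged minus young, was 0.13, against 0.01 over all genes tested, and 36 of 44 (81.8%) lay above 0, against 56.1% of all genes. The count depended on single arrays. It fell most without young replicate 2, to 9 of the 44, where 2.48% of all genes were called. Without young replicate 5 it was 10 (3.24% of all genes). Without impaired replicate 4 or 6 it was 11 (3.09% and 2.76% of all genes).

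**Figure D1:**
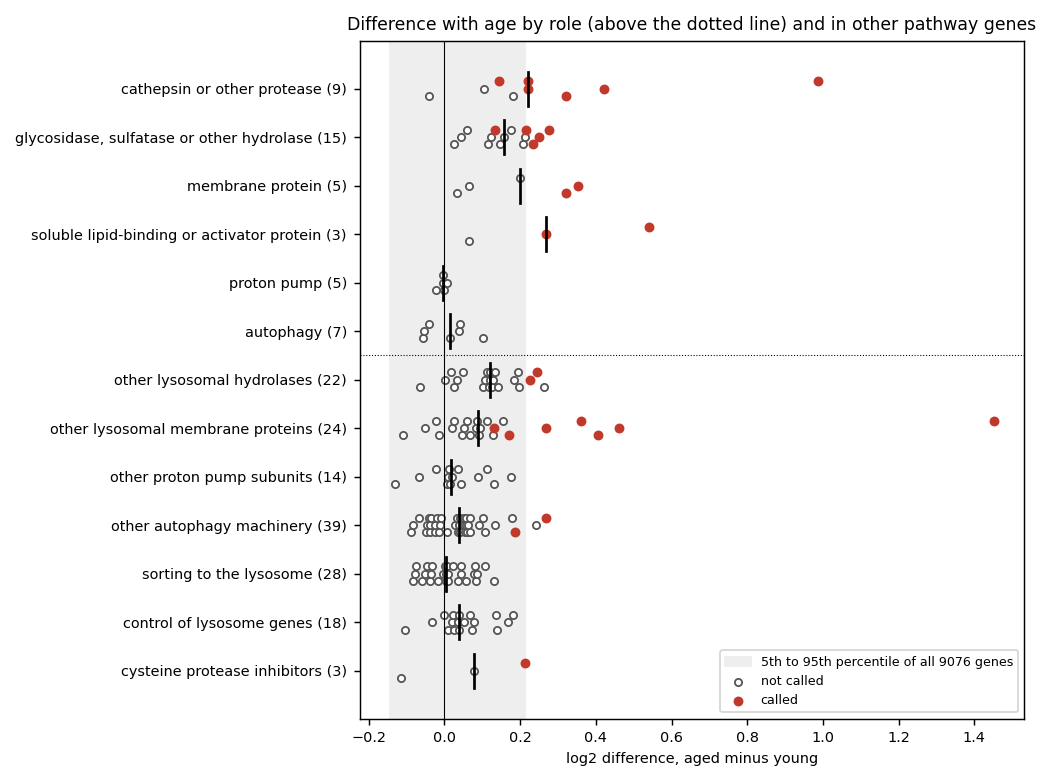
Log2 difference of aged minus young CA1 for each gene (points, filled where called) by role, with the number of measured genes in parentheses and a bar at the median. The grey band spans the 5th to 95th percentile of all 9076 genes (-0.14 to 0.21). Proteases reach 0.99, whereas proton pump genes stay between -0.02 and 0.01.

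The promoters of some of these genes carry letters recognised by the factor TFEB and its relatives, which switch on lysosomal genes, so the windows around their start sites were read from RefSeq promoters of the GRCr8 build. Each window covered 250 bases before and 50 after the start of a gene, and 39 of the 49 genes had one. Ctsb, Hexa, Arsa, Arsb, Asah1, Ppt1, Psap, Atp6v1b2, Map1lc3a and Becn1 had none in the table. The letters CACGTG, which read the same on both strands, stood in 9 of the 39 windows and in 6.42% of all 33469 windows. They were found in 3 of the 11 windows of called genes (Ctsd, Cd63 and Gaa) and in 5 of the 23 of measured genes that were not called (Glb1, Mcoln1, Lamp1, Atp6v0d1 and Atg5), and also in Sgsh. The longer TCACGTGA, which contains CACGTG and also reads the same on both strands, stood in 4 of the 39 windows and in 0.777% of all windows. Ctsd was the only called gene among these 4. The 120 bases from 100 before to 20 after the start are printed for the 4, with TCACGTGA in capitals, because they show the same letters in a gene that rose and in genes that did not pass. They were chosen after the search. Their places are chr1:206968802-206968921 (minus strand) for Ctsd, chr16:83075044-83075163 (minus strand) for Lamp1, chr19:50357229-50357348 (minus strand) for Atp6v0d1 and chr12:6358158-6358277 (plus strand) for Mcoln1.
Ctsd: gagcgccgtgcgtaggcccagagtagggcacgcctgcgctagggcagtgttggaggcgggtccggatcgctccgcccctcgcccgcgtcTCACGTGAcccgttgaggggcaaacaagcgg
Lamp1: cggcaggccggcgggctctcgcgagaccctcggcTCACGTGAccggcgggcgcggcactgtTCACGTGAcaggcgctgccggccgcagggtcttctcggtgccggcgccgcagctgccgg
Atp6v0d1: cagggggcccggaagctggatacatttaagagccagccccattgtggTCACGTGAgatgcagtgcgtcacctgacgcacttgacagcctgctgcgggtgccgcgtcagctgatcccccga
Mcoln1: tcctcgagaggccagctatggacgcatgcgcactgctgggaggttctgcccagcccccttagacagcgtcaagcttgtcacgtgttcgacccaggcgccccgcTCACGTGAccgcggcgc
The letters begin at base 90 of the Ctsd window, at bases 35 and 62 of the Lamp1 window, at base 48 of the Atp6v0d1 window and at base 104 of the Mcoln1 window, past the start site. Ctsd, the protease, rose with age. The log2 differences of the other genes were 0.06 ± 0.06 (SE) for Lamp1, -0.00082 ± 0.040 for Atp6v0d1 and 0.03 ± 0.07 for Mcoln1, and none of these passed. A match of letters is a description of the window and not a binding site.

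Among the proteases, Ctsz gave the largest change. Ctsz is a carboxypeptidase of the cathepsin family. Its log2 signal ran from 6.13 to 7.38 (median 6.93) in the 9 young arrays, from 7.41 to 7.99 (median 7.71) in the 6 aged unimpaired arrays and from 7.39 to 8.24 (median 7.82) in the 8 aged impaired arrays. All 14 aged arrays lay above every young array, while the aged groups overlapped. Such a separation was seen in 3 of the 44 genes, Ctsz, Npc2 and Lamp2, and in 0.165% of all genes. All aged arrays lay below every young one in 0 of the 44 and in 0.011% of all genes. Ctsz rose by 0.99 ± 0.13 (SE; limma, adjusted p = 7.01e-05).

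Ctsd, the main aspartic protease of lysosomes, ran from 10.18 to 10.60 (median 10.35) in young, from 10.64 to 10.94 (median 10.81) in unimpaired and from 10.53 to 11.04 (median 10.81) in impaired arrays. In 13 of 14 aged arrays Ctsd exceeded the young range, the exception being aged impaired replicate 1. Ctsd rose by 0.42 ± 0.06 (limma, adjusted p = 2.04e-04). Ctss, a cysteine protease that also trims the invariant chain of MHC class II, ran from 11.97 to 12.27 (median 12.18) in young, 12.25 to 12.57 (median 12.43) in unimpaired and 12.34 to 12.68 (median 12.44) in impaired arrays. Here too 13 of 14 aged arrays lay above the young range, with unimpaired replicate 7 inside it, and Ctss rose by 0.32 ± 0.05 (limma, adjusted p = 5.07e-04).

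Smaller rises were measured for Ctsa, Ctsb and Ctsh. Ctsa, the carboxypeptidase that protects galactosidase and sialidase in a complex, had a median of 9.77 (9.63 to 9.89) in young, 9.93 (9.91 to 10.08) in unimpaired and 9.99 (9.81 to 10.18) in impaired arrays. It rose by 0.22 ± 0.04 (limma, adjusted p = 0.00397), with aged impaired replicate 1 as the only aged array inside the young range. Ctsb, an abundant cysteine protease, had a median of 12.38 (12.31 to 12.49) in young, 12.50 (12.39 to 12.57) in unimpaired and 12.59 (12.42 to 12.67) in impaired arrays, and rose by 0.14 ± 0.03 (limma, adjusted p = 0.0182). Ctsh, an aminopeptidase, had a median of 9.31 (9.16 to 9.58) in young, 9.59 (9.39 to 9.66) in unimpaired and 9.66 (9.24 to 9.74) in impaired arrays. It rose by 0.22 ± 0.06 (limma, adjusted p = 0.0381), although 6 aged arrays fell within the young range. The call of Ctsb ended when each array was centred on its median (adjusted p = 0.0618, limma) and with the replicate number as a block. That of Ctsh ended without a filter on dim probe sets, with array weights, with RNA quality as a covariate and without the 3 arrays of lowest correlation, and was lost in 14 of the 23 fits that left out 1 array, with an adjusted p up to 0.0935. Those fits left out young replicate 1, 2, 5, 6 or 7, unimpaired replicate 2, 4 or 5, or impaired replicate 2, 3, 4, 5, 6 or 7.

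Of the proteases that did not pass, Tpp1, a tripeptidase lost in a childhood storage disease, differed by 0.18 ± 0.07 (limma, adjusted p = 0.209) and Ctsl by 0.10 ± 0.04 (limma, adjusted p = 0.244). Ctsk, known from bone-resorbing osteoclasts, was the only protease with a difference below 0, at -0.04 ± 0.11. Its values overlapped in all groups, from 8.12 to 8.85 in young, 8.45 to 8.87 in unimpaired and 8.0 to 8.85 in impaired arrays.

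**Figure D2:**
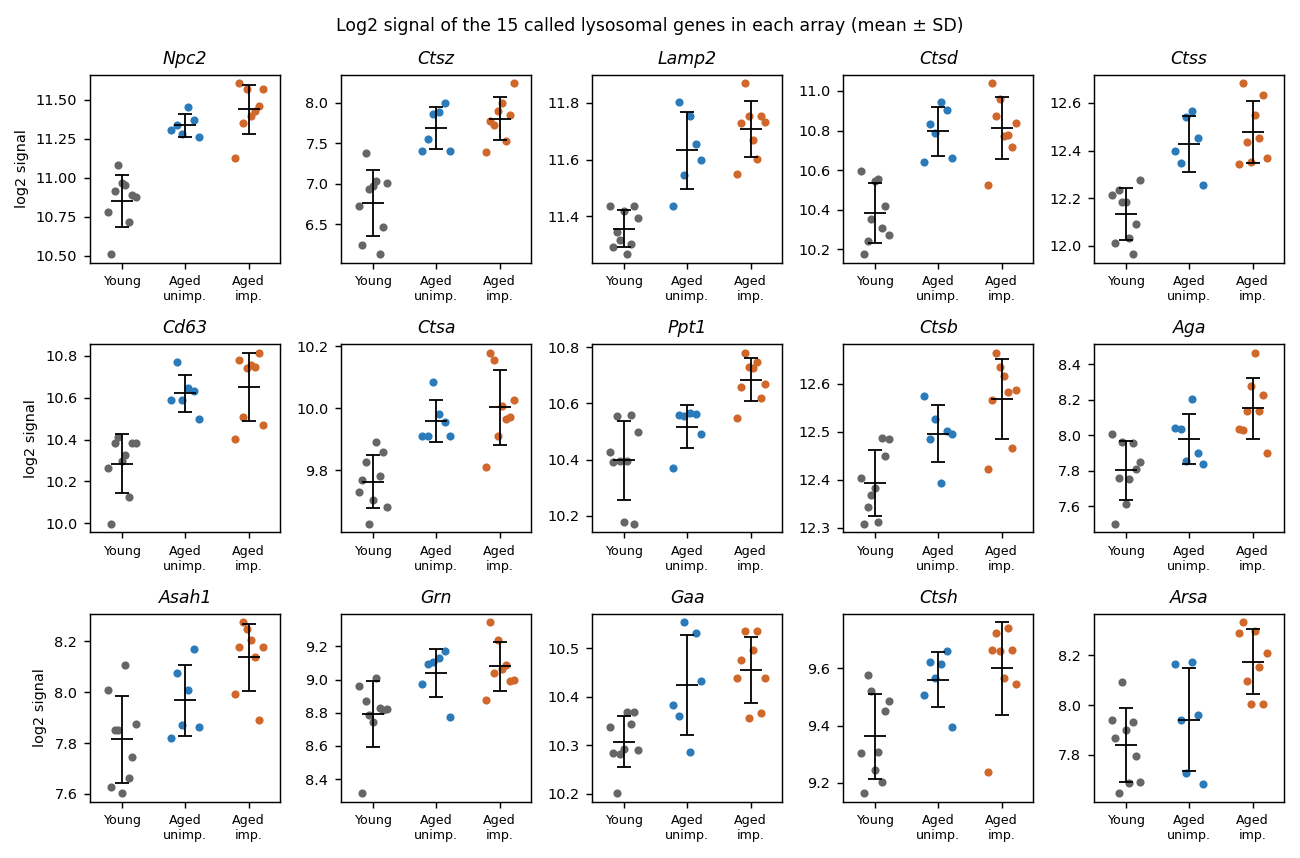
Log2 signal of each of the 15 called genes in every array (points: 9 young, 6 aged unimpaired, 8 aged impaired), with the group mean and SD (bars); each panel has its own vertical axis. In Npc2, Ctsz and Lamp2 all aged points lie above all young points, and the aged groups overlap in every panel.

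Npc2 gave the smallest p of the set, at rank 5 among all 9076 genes. Npc2 binds cholesterol in the lumen of the lysosome and passes it to Npc1, which was not measured here. Its log2 signal ran from 10.51 to 11.08 (median 10.89) in young, from 11.26 to 11.46 (median 11.32) in unimpaired and from 11.12 to 11.61 (median 11.45) in impaired arrays, with no overlap of young and aged arrays. It rose by 0.54 ± 0.06 (limma, adjusted p = 9.32e-06). Grn, the precursor of the granulins, had a median of 8.82 (8.31 to 9.01) in young, 9.10 (8.78 to 9.17) in unimpaired and 9.05 (8.88 to 9.35) in impaired arrays. It rose by 0.27 ± 0.07 (limma, adjusted p = 0.0313), a call lost without young replicate 2, 4 or 5 or impaired replicate 4 (adjusted p up to 0.0534), without a filter on dim probe sets, with RNA quality as a covariate and without the 3 arrays of lowest correlation. Psap, the precursor of the saposins that present lipids to hydrolases, differed by 0.07 ± 0.04 (limma, adjusted p = 0.49).

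In the lysosomal membrane, Lamp2 and Cd63 rose and Lamp1 did not pass. Lamp2, a heavily glycosylated protein needed for fusion of autophagosomes with lysosomes, ran from 11.27 to 11.44 (median 11.34) in young, 11.44 to 11.80 (median 11.63) in unimpaired and 11.55 to 11.87 (median 11.73) in impaired arrays. The lowest aged array stood only 0.0021 above the highest young one. Lamp2 rose by 0.32 ± 0.04 (limma, adjusted p = 8.85e-05). A dimmer Lamp2 probe set differed by only 0.09 ± 0.07 (limma over all probe sets, adjusted p = 0.616). Cd63, a tetraspanin of late endosomes, ran from 9.998 to 10.41 (median 10.32) in young, 10.50 to 10.77 (median 10.61) in unimpaired and 10.40 to 10.81 (median 10.74) in impaired arrays. It rose by 0.35 ± 0.06 (limma, adjusted p = 7.09e-04), with 13 of 14 aged arrays above the young range.

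Lamp1, the close relative of Lamp2, differed by 0.06 ± 0.06 (limma, adjusted p = 0.673), at 11.74 ± 0.16 (SD, n = 9) in young, 11.78 ± 0.06 (SD, n = 6) in unimpaired and 11.83 ± 0.14 (SD, n = 8) in impaired arrays. Scarb2, the receptor that carries glucocerebrosidase to lysosomes, differed by 0.20 ± 0.16 (limma, adjusted p = 0.619). It had the widest spread of the set, with a within-group SD of 0.39, and its young arrays alone ran from 5.43 to 7.27. Mcoln1, a calcium channel of lysosomes, differed by 0.03 ± 0.07.

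Among the 15 measured hydrolases, 5 rose by small amounts: Ppt1, Aga, Asah1, Gaa and Arsa. All 15 had a log2 difference above 0, between 0.02 for Ids and 0.28 for Aga, with a median of 0.16. Ppt1, which removes fatty acids from proteins, had a median of 10.40 (10.17 to 10.56) in young, 10.56 (10.37 to 10.57) in unimpaired and 10.70 (10.55 to 10.78) in impaired arrays. The unimpaired arrays lay largely within the young range, and 9 aged arrays exceeded it. Ppt1 rose by 0.22 ± 0.05 (limma, adjusted p = 0.0091). Aga, which splits asparagine from the sugars of glycoproteins, had a median of 7.81 (7.50 to 8.01) in young, 7.97 (7.84 to 8.20) in unimpaired and 8.14 (7.90 to 8.47) in impaired arrays, and rose by 0.28 ± 0.07 (limma, adjusted p = 0.0210). Without young replicate 2 its adjusted p was 0.0522, and its call was also lost with the replicate number as a block.

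Asah1, the acid ceramidase, had a median of 7.85 (7.60 to 8.11) in young, 7.94 (7.82 to 8.17) in unimpaired and 8.18 (7.89 to 8.28) in impaired arrays, and rose by 0.25 ± 0.06 (limma, adjusted p = 0.0244). Its other probe set, of nearly the same mean, differed by 0.12 ± 0.05 (limma over all probe sets, adjusted p = 0.217). The call was lost in 7 fits without 1 array (young replicate 2, 5 or 7, impaired replicate 2, 4, 6 or 8), with an adjusted p up to 0.208. In 4 of these the other probe set had the higher mean and was the one tested. Gaa, which digests glycogen, had a median of 10.29 (10.20 to 10.37) in young, 10.41 (10.29 to 10.55) in unimpaired and 10.46 (10.36 to 10.54) in impaired arrays and rose by 0.13 ± 0.04 (limma, adjusted p = 0.0318). This call was lost in 8 fits, without young replicate 2, 3, 4, 5 or 9 or impaired replicate 3, 5 or 6 (adjusted p up to 0.0664), after centring of the arrays, and with the mean of its probe sets. Arsa, the sulfatase of myelin lipids, had a median of 7.87 (7.65 to 8.09) in young, 7.95 (7.68 to 8.17) in unimpaired and 8.18 (8.01 to 8.33) in impaired arrays and rose by 0.23 ± 0.07 (limma, adjusted p = 0.0476). It was the least stable call: 18 of 23 fits without 1 array lost it, with an adjusted p up to 0.0974, whereas it held without young replicate 1 or 4, unimpaired replicate 3 or 7 or impaired replicate 7. It passed under 4 of 14 other settings.

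The other 10 hydrolases did not pass, with log2 differences from 0.02 to 0.21 and adjusted p from 0.0917 to 0.867 (limma). Nearest were Hexa, a subunit of the hexosaminidase that degrades gangliosides, at 0.17 ± 0.06 (limma, adjusted p = 0.0917), and Man2b1, a mannosidase, at 0.21 ± 0.08 (limma, adjusted p = 0.169). Gla, Glb1, Gusb, Arsb, Neu1, Manba, Naglu and Ids made up the rest. Manba lay at the edge of measurement, over a log2 signal of 4 in 15 arrays and between 3.54 and 4.44. Its young mean was 3.87, below the limit for dim probe sets, so it was measured through the aged arrays. It is still counted among the 36 genes and the 15 hydrolases above 0, and among the 21 at an unadjusted p under 0.05. Passing the limit through the aged arrays favoured a difference above 0, so Manba lends these counts no support. Ctsc, the gene left out as dim, was over 4 in 0 arrays and lay between 2.86 and 3.19.

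The proton pump genes were nearly level across age. Atp6v0d1, Atp6v1a, Atp6v1b2, Atp6v0c and the accessory protein Atp6ap1 had log2 differences between -0.02 and 0.01, with adjusted p from 0.819 to 0.996 (limma). The largest in size was that of Atp6v1b2, a subunit that binds ATP, at -0.02 ± 0.03. Its median was 12.06 (11.96 to 12.14) in young, 12.04 (11.95 to 12.08) in unimpaired and 12.05 (11.89 to 12.15) in impaired arrays, and the groups overlapped. Atp6ap1 stood at 12.51 ± 0.04 (SD, n = 9), 12.50 ± 0.05 (SD, n = 6) and 12.53 ± 0.10 (SD, n = 8) in the same order. Their SEs, of 0.033 to 0.040, were smaller than the median SE over all genes, 0.058.

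The 7 measured autophagy genes had log2 differences between -0.06 and 0.10, and none passed, with adjusted p from 0.137 to 0.882 (limma). Gabarapl1, an Atg8 protein, came nearest at 0.10 ± 0.04 (limma, adjusted p = 0.137), with medians of 11.75 (11.66 to 11.87) in young, 11.80 (11.73 to 11.93) in unimpaired and 11.87 (11.75 to 12.04) in impaired arrays. The related Gabarap differed by 0.04 ± 0.03, and Map1lc3a, the Atg8 protein used as a mark of autophagosomes, by -0.06 ± 0.04 (limma, adjusted p = 0.571). Sqstm1, the cargo receptor also called p62, differed by 0.04 ± 0.04, Becn1, of the complex that starts the autophagosome membrane, by -0.04 ± 0.04, and the conjugation factors Atg5 and Atg7 by -0.06 ± 0.05 and 0.01 ± 0.03.

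Each aged group was then compared with the same young arrays, so these comparisons share their controls. In impaired against young rats 14 of the 44 genes rose and 0 fell, 31.8% of the set, where 3.8% of all genes were called, 3.09% higher and 0.716% lower. At an unadjusted p under 0.05, 22 were higher and 0 lower, against 10.6% and 5.98% of all genes, and 38 of the 44 differences lay above 0, against 53.6% of all genes. They were the 15 above without Ctsh (limma, adjusted p = 0.0512). In unimpaired against young rats 6 rose and 0 fell, 13.6% of the set, where 0.76% of all genes were called, 0.617% higher and 0.143% lower. At an unadjusted p under 0.05, 14 were higher and 0 lower, against 6.8% and 3.04% of all genes, and 34 of the 44 differences lay above 0, against 58.3% of all genes. These were Ctsd, Ctss, Ctsz, Lamp2, Cd63 and Npc2, all of which rose in both comparisons. Npc2 differed from young by 0.59 ± 0.07 in impaired and 0.48 ± 0.07 in unimpaired rats, Ctsz by 1.04 ± 0.15 and 0.92 ± 0.16, Ctsd by 0.43 ± 0.07 and 0.41 ± 0.08, and Lamp2 by 0.35 ± 0.05 and 0.28 ± 0.05. For Cd63 the differences were 0.37 ± 0.07 and 0.34 ± 0.07, and for Ctss 0.34 ± 0.06 and 0.29 ± 0.06.

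Some of these calls rested on single arrays or settings. Lamp2 in unimpaired rats was lost with the mean of its probe sets and with centred arrays, and Cd63 and Ctss with RNA quality as a covariate. With the replicate number as a block Ctsd, Ctss, Lamp2 and Cd63 were all lost in unimpaired rats. In unimpaired rats the call of Cd63 was lost without unimpaired replicate 2, 4 or 5 (adjusted p up to 0.0700) and that of Ctss without unimpaired replicate 3, 4 or 5 (adjusted p up to 0.0847), both by limma. In impaired rats Asah1 was lost without impaired replicate 2, 4, 6 or 8 (limma, adjusted p up to 0.188), Gaa in 9 fits (up to 0.0863) and Grn in 17 of 23 (up to 0.0926). The fits that lost Gaa left out young replicate 2, 3, 4, 5 or 9 or impaired replicate 2, 3, 5 or 6. Those that kept Grn left out young replicate 1 or 6, unimpaired replicate 5 or 7 or impaired replicate 1 or 8. Under the 14 other settings the call in impaired rats held in 6 for Grn and in 8 for Gaa. That of Ctsb was lost with the replicate number as a block and with adjusted p under 0.01.

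**Figure D3:**
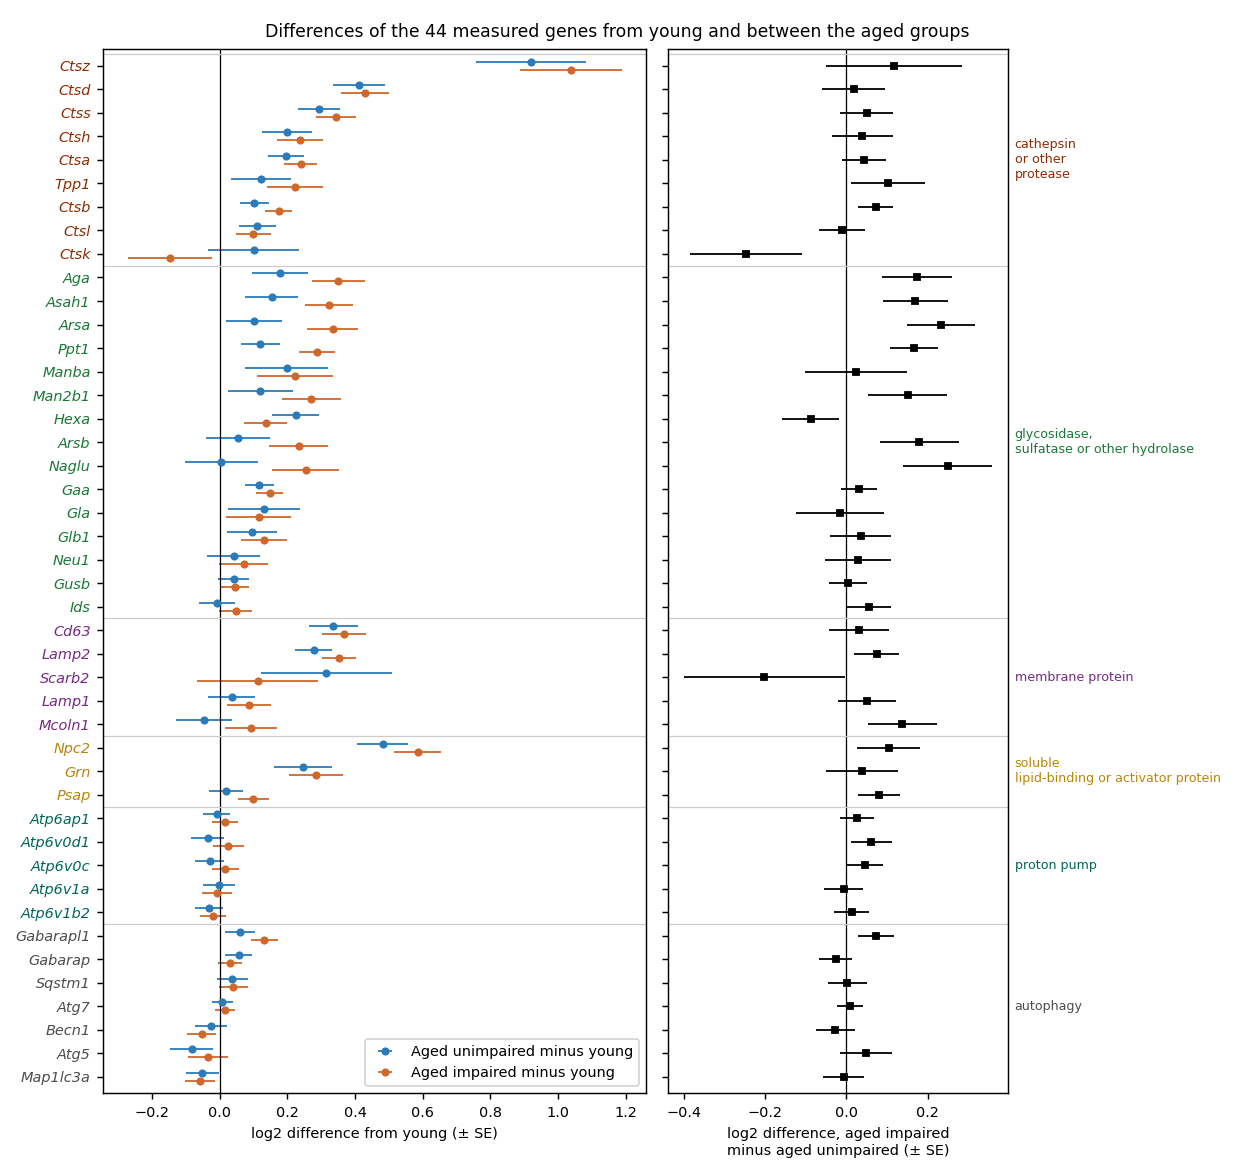
Log2 differences of the 44 measured genes by role, with SE bars: each aged group minus young (left) and aged impaired minus aged unimpaired (right). On the left Ctsz, Ctsd and Npc2 lie far from 0 in both aged groups, and on the right no gene passed the adjusted test.

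The aged groups were compared with each other directly. Of the 44 genes 0 passed between impaired and unimpaired rats, as of all 9076 genes (0%; limma, Benjamini-Hochberg). At an unadjusted p under 0.05, 4 were higher and 0 lower in impaired rats, where 3.18% of all genes were higher and 3.75% lower at that level. These 4 were hydrolases: Arsa, by 0.23 ± 0.08, the heparan sulfate glucosaminidase Naglu, by 0.25 ± 0.11, Asah1, by 0.17 ± 0.08, and Ppt1, by 0.17 ± 0.06. Their adjusted p lay between 0.607 and 0.705 (limma). Naglu had 1 impaired array, replicate 7, far above the others at 6.29 against at most 5.68, and without 1 array its difference ran from 0.15 to 0.28. In Asah1 that range was 0.05 to 0.21, the lower end with its other probe set. Of the 44 genes 35 (79.5%) had a higher mean in impaired than in unimpaired rats, against 47.4% of all genes, with a median difference of 0.04. The 8 genes called in impaired but not in unimpaired rats (Ctsa, Ctsb, Gaa, Arsa, Asah1, Ppt1, Aga and Grn) therefore had no called difference between the aged groups. At the same unadjusted level 3 of 19 markers of microglia and 4 of 16 of oligodendrocytes were higher in impaired rats and 0 of either lower. Also higher were 1 of 12 of endothelium, 1 of 6 of meninges and choroid plexus and 1 of 7 of dentate gyrus and CA3, with 0 lower. Of 19 neuronal markers 2 were higher and 2 lower, and of 19 astrocyte markers 0 were higher and 1 lower. The part of these cells was not tested.

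The called genes were then counted rat by rat, as a description of the arrays that chose them. Impaired replicates 2, 3 and 6 lay above every young array in 15 of the 15 genes, whereas impaired replicate 1 did so in 7. Unimpaired arrays did so in 8 to 13 genes. Impaired replicate 1 was the lowest impaired array in 11 of the 15 genes, and young replicate 2 the lowest young array in 7. Without impaired replicate 1, 15 genes were called in aged rats (3.72% of all genes) and 17 in impaired rats (3.79%), with Ctsh, Tpp1 and Man2b1 added to the latter.

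**Figure D4:**
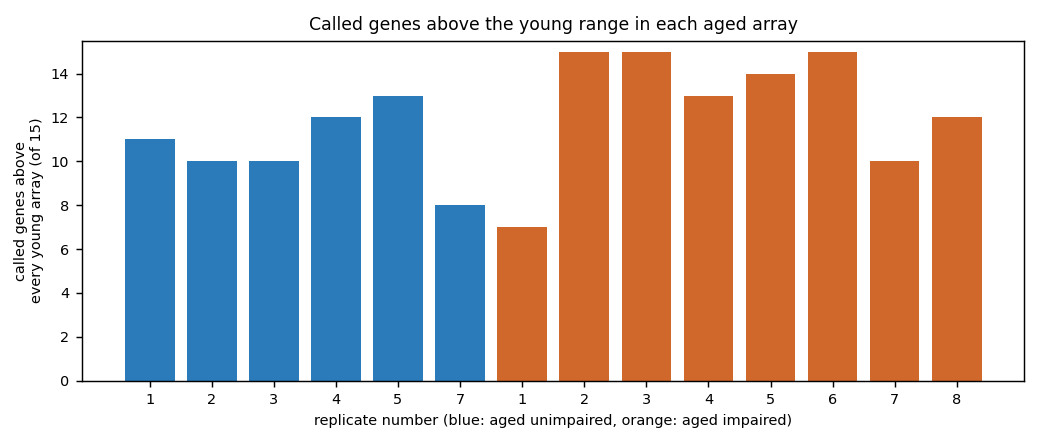
Number of the 15 called genes whose log2 signal lay above all 9 young arrays, for each aged array (bars; replicate numbers as in the labels). Counts run from 7 in impaired replicate 1 to 15 in impaired replicates 2, 3 and 6.

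Many markers of microglia and macrophages also rose with age. Of 34 listed markers 19 were measured, and 11 rose and 0 fell in aged rats (limma, with a median log2 difference of 0.35). Of all genes 3.09% were called higher and 0.628% lower. Their summed signal, on the log2 scale, ran from 12.13 to 12.59 in young, 12.59 to 12.90 in unimpaired and 12.64 to 12.94 in impaired arrays. It was lowest of the young arrays in young replicate 2, of the unimpaired arrays in replicate 7 and of the impaired arrays in replicate 1. These arrays were also most often lowest in the called genes, which were chosen from these same arrays. A count of genes above the young range is also another measure than a summed signal. Impaired replicate 7 had the highest sum of its group, 12.94, and exceeded every young array in 10 of the 15 called genes. Impaired replicate 6, with a lower sum of 12.71, did so in 15. The Fc receptor subunit Fcer1g rose by 0.59 ± 0.08, the complement subunit C1qa by 0.55 ± 0.08, and the leukocyte tetraspanin Cd53 by 0.65 ± 0.12. Fcgr2b, an Fc receptor, is counted among the 11 but had a young mean of 3.79, below the limit for dim probe sets, so it was measured through the aged arrays and no size is given for it. Tmem119, P2ry12, Csf1r and Cx3cr1, which define resting microglia, did not pass, with differences of -0.06 ± 0.11, 0.18 ± 0.10, 0.19 ± 0.07 and 0.21 ± 0.14, although Csf1r rose in impaired against young rats, by 0.30 ± 0.08 (limma, adjusted p = 0.0295). The part of microglia in the lysosomal rises was not tested.

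Markers of other cell types were counted in the same way. Of 19 astrocyte markers 4 rose, of 16 oligodendrocyte markers 2 rose and 1 fell, of 19 neuronal markers 1 fell and of 12 endothelial markers 1 fell. Beside these stand 3.09% of all genes called higher and 0.628% lower, and with so few markers a single call says little. Of 6 measured markers of meninges and choroid plexus 2 rose and 2 fell: Ptgds, which makes prostaglandin D, rose by 0.56 ± 0.10 and Aebp1 by 0.32 ± 0.08, whereas the growth factor Igf2 fell by 0.84 ± 0.16 and the proteoglycan Dcn by 0.71 ± 0.15. Their summed signal ran from 11.75 to 12.04 in young, 11.92 to 12.30 in unimpaired and 11.87 to 13.09 in impaired arrays. Of 7 markers of the dentate gyrus and CA3, 0 passed, with 1 lower at an unadjusted p under 0.05 (limma), where 4.74% of all genes were lower. The filament gene Gfap of astrocytes rose by 0.51 ± 0.07, and the summed signal of astrocyte markers ran from 16.60 to 16.81 in young, 16.76 to 16.87 in unimpaired and 16.71 to 16.94 in impaired arrays. The part of these cells in the lysosomal rises was not tested.

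Other genes of the pathway, from lists that are no part of the 49, were counted by role. These lists too were chosen with earlier results of these data known. Of 148 measured, 12 rose and 0 fell in aged rats (limma), beside 3.09% of all genes called higher. Of 22 other hydrolases 2 rose, the asparaginyl protease Lgmn by 0.24 ± 0.05 and the fucosidase Fuca1 by 0.23 ± 0.05. Of 24 other membrane proteins 7 rose. Gpnmb, a glycoprotein of phagocytic cells, rose by 1.45 ± 0.20, Tmem192 by 0.46 ± 0.08, Laptm5, which also stands among the microglial markers, by 0.41 ± 0.09 and the sialomucin Cd164 by 0.13 ± 0.03. Of 3 cysteine protease inhibitors 1 rose, Cstb, which inhibits cathepsins, by 0.21 ± 0.05.

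Of 39 other autophagy genes 2 rose, beside 3.09% of all genes called higher. These were the fusion protein Vamp8, by 0.27 ± 0.06, and the mitophagy kinase Pink1, by 0.19 ± 0.05. None passed among 14 other proton pump subunits, 28 sorting genes or 18 genes that control lysosome genes. At an unadjusted p under 0.05 (limma), 4, 2 and 3 of these were higher and 0 lower. Of all genes 10.6% were higher and 4.74% lower at that level. The nearest in these lists were the pump subunit Atp6v1c1, at 0.13 ± 0.04 (limma, adjusted p = 0.0751), the sorting nexin Snx1, at 0.13 ± 0.05 (limma, adjusted p = 0.182), and Tfe3, a relative of TFEB, at 0.17 ± 0.05 (limma, adjusted p = 0.0740). The median log2 difference was 0.12 in other hydrolases, 0.09 in other membrane proteins, 0.02 in other pump subunits, 0.04 in other autophagy genes and 0.01 in sorting genes.

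**Figure D5:**
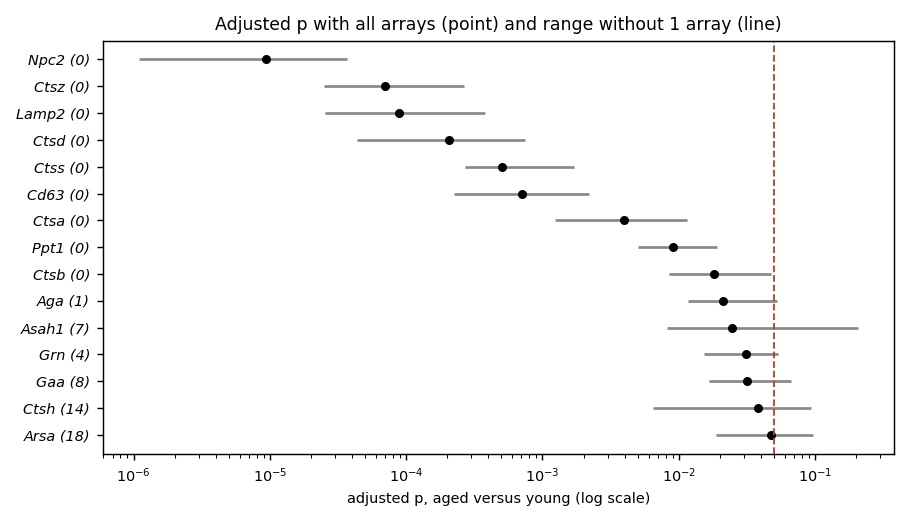
Adjusted p of the 15 called genes in aged against young CA1 on a log scale, with all arrays (points) and over the 23 fits without 1 array (lines); the number of fits above 0.05, the dashed line, is in parentheses. Npc2, Ctsz, Lamp2, Ctsd, Ctss, Cd63, Ctsa, Ppt1 and Ctsb stayed below 0.05 in all 23 fits.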

How the data were processed

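RNA of each rat was hybridised to 1 Affymetrix Rat Genome 230 2.0 array. The deposited values were log2 signals made by the authors with GCRMA, per the submitters' processing notes. The sources used here give no version or settings for it. The table held 31099 probe sets in 24 columns. 1 column, aged unimpaired replicate 8, was blank and not used; per the labels it was left out after quality control. This left 23 arrays. Groups are those of the labels. No batch or date was given, so none was modelled, and the number of arrays limits the precision.

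Exactly 1 symbol was carried by 20832 probe sets, several by 436 and none by 9831, in a platform annotation that can be old. Each gene used its probe set of highest mean, kept if over a log2 signal of 4 in at least 6 arrays. Values were not rescaled. Means of the 3 groups were fitted over all 9076 genes by limma 3.58.1 (R 4.3.3). Each of 4 comparisons got moderated statistics, its p-values adjusted by Benjamini-Hochberg. In the aged mean each aged array counted equally. Errors of differences are SEs. Levels of different genes were not compared. RNA quality was compared with 2-sided exact permutation tests. The pipeline was tested on simulated data.

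The genes and lists were chosen with earlier results of these data known. Called genes were named with values, with the 2 of smallest p per role among the others and up to 4 called genes per other list. Genes outside that rule were named after their values were seen. Alternatives covered the filter, probe set choice, scaling, array weights, moderation, an RNA quality covariate, a replicate block, the groups fitted, the threshold and each array left out. Leaving out the 3 arrays of lowest correlation was chosen after seeing the data. Figures used matplotlib 3.10.9 in Python 3.11.15.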

Additional observations from a re-analysis of the deposited data

Results flagged for a closer look

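Among 132 sets of values (44 genes in 3 groups), 11 held 1 array that stood far from the rest of its group by Dixon's test. Chance flags about 1 in 20 such sets. Ctsl was high in aged unimpaired replicate 4, at a log2 signal of 10.96 against at most 10.83 in the other arrays of the group. Gla was raised in young replicate 3, at a log2 signal of 7.85 against at most 7.32 in the other arrays of the group. Gusb was high in aged unimpaired replicate 2, at a log2 signal of 6.40 against at most 6.27 in the other arrays of the group. Neu1 was raised in aged impaired replicate 6, at a log2 signal of 5.59 against at most 5.04 in the other arrays of the group. Naglu was high in aged impaired replicate 7, at a log2 signal of 6.29 against at most 5.68 in the other arrays of the group. Mcoln1 was raised in aged impaired replicate 5, at a log2 signal of 8.41 against at most 7.95 in the other arrays of the group. Atp6v1a was high in young replicate 7, at a log2 signal of 12.96 against at most 12.81 in the other arrays of the group. Ctsh was low in aged impaired replicate 1, at 9.24 against at least 9.54. Gusb was low in young replicate 8, at 6.02 against at least 6.17. Grn was low in young replicate 2, at 8.31 against at least 8.74. Sqstm1 was low in aged impaired replicate 7, at 12.24 against at least 12.45. Of the genes called in aged rats, Ctsh and Grn are among these 11. With impaired replicate 1 left out, Ctsh passed in impaired against young rats too.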

How the results depend on the processing

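No called difference of the 44 genes changed sign under any alternative run, and all calls among the 44 genes were rises. In aged against young rats 12 to 16 genes were called under the other filters, probe set choices, scalings, weights, moderation, covariate, looser threshold, groups fitted and without the 3 arrays of lowest correlation. Over all genes the calls there ran from 272 of 14218 (no filter on dim probe sets) to 524 of 9076 (looser threshold). With adjusted p under 0.01 there were 8, where 129 of all 9076 genes were called. At that level 8 were called in impaired rats (120 of all genes) and 3 in unimpaired rats (23), and 4 other pathway genes in aged rats. Labels number the replicates, but same-numbered arrays are different rats, and the deviations of 20 same-numbered pairs correlated between -0.27 and 0.12. With the replicate number as a block 8 genes were called in aged rats (159 of all 9076 genes), 2 in unimpaired rats (31) and 3 other pathway genes. The calls lost in aged rats were those of Ctsb, Ctsh, Gaa, Arsa, Asah1, Aga and Grn. In fits without 1 array the counts ran from 9 (without young replicate 2) to 15 in aged, 11 to 17 in impaired and 4 to 6 in unimpaired rats, and 8 to 16 other pathway genes. Of all genes 2.48% to 4.44%, 2.49% to 4.83% and 0.386% to 0.948% were called in these fits, in the same order of groups. Between the aged groups the count was 0 in all of these settings. With arrays centred on their median, 63.9% of all calls in aged rats rose, in place of 83.1%, 66.3% in impaired and 62.5% in unimpaired rats, in place of 81.2% in each, and 34 of the 44 differences were above 0, in place of 36. In dim genes such as Manba the background correction limits the size of a difference.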

Other observations

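Of the 44 genes, 13 had a second probe set over the limit for dim signals. For Arsa both probe sets gave like differences in aged against young rats, 0.23 ± 0.07 (SE) and 0.20 ± 0.06, and for Gaa 0.13 ± 0.04 and 0.14 ± 0.07. Arsb, not called, differed by 0.16 ± 0.08 with the brighter and 0.23 ± 0.08 with the dimmer probe set. Neu1, a sialidase, differed by 0.06 ± 0.06 and -0.12 ± 0.06, so its probe sets disagreed in sign. Gabarapl1 did so too, at 0.10 ± 0.04 and -0.02 ± 0.06.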
